A study of Homo sapiens and Mus musculus with 22 samples.

Results

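The genes described here encode the subunits of integrins, the receptors by which cells hold on to extracellular matrix and to other cells, and of laminins, the trimeric glycoproteins of basement membranes. They were chosen by symbol, a rule that uses no measured value but was set with earlier results of these data known. The symbols of integrin alpha and beta chains and of laminin alpha, beta and gamma chains numbered 38 among the 25435 genes of the table of H69 and H69M cells. The same 38 were among the 20113 genes of the table of H69EZ cells, and 37 were among the 24047 genes of the mouse table, whose list holds no Lamb4. The integrin alpha chains were 4 that bind the RGD motif, 4 that bind collagen, 3 that bind laminin, the alpha4 and alpha9 chains and 5 leukocyte chains. The other members were 8 integrin beta chains and alpha, beta and gamma chains of laminin.

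RNA-seq read counts per gene were available for 22 libraries of small cell lung cancer lines in 8 groups. H69M cells (3 libraries, MHC class I high) were derived from the human line NCI-H69, whose unsorted cells are MHC class I low or negative (H69, 3 libraries). H69M cells were also sorted into a PD-L1 high fraction with high MHC class I and a PD-L1 low or negative fraction with low or negative MHC class I (3 libraries each). H69EZ cells came from H69 cells exposed to an EZH2 inhibitor for 6 days, then cultured without it while adherent cells were selected, a history that both H69EZ fractions share. They were sorted into HLA-ABC high and HLA-ABC low or negative fractions (2 libraries each). RPP-A cells (3 libraries, MHC class I high) were obtained from the mouse line 631RPP (RPP, 3 libraries, MHC class I low or negative) by selecting for growth attached to plastic. No genotype, clone or passage is given for the lines. The labels do not say whether replicates came from separate cultures, and the p-values measure a spread between libraries that may be technical. For H69EZ cells, with 2 libraries per group, the estimate of that spread draws on all genes of the table. The very small p-values there do not make that comparison more certain than the others.

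An integrin is a pair of an alpha and a beta chain, and the pair decides which matrix protein is bound. Paired with beta1, alpha5 holds fibronectin, alpha1, alpha2, alpha10 and alpha11 hold collagen, and alpha3, alpha6 and alpha7 hold laminin. The alphaV chain joins several beta chains to bind RGD-bearing proteins and latent TGF-beta. A laminin is made of an alpha, a beta and a gamma chain and is named after them. Classic small cell lung cancer lines such as NCI-H69 grow as floating clusters, while adherent variants of such lines spread on plastic.

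Total counts per library ranged from 10817795 to 52458228. Levels are given as CPM, counts per 1000000 of the scaled library, and each table was scaled by itself, so levels are compared within a table only. The summed level of 7 neuroendocrine markers (INSM1, CHGA, SYP, NCAM1, GRP, DLL3, UCHL1) was above 0 in all groups. It was 2966 to 2999 CPM in H69M and 3012 to 3149.5 CPM in H69, and 1316 to 1357 CPM in PD-L1 high and 3792 to 3976 CPM in PD-L1 low libraries. It was 742 to 776 CPM in HLA high and 2219 to 2241 CPM in HLA low, and 152 to 194 CPM in RPP-A and 1522 to 1869 CPM in RPP libraries. The summed level of 7 fibroblast markers (DCN, LUM, PDGFRA, COL1A1, COL1A2, COL3A1, FBLN1) moved with every comparison made here. It was 2499 to 2788 CPM in H69M and 229 to 233 CPM in H69, and 11107 to 11398 CPM in PD-L1 high and 294 to 389 CPM in PD-L1 low libraries. It was 16379 to 17820.3 CPM in HLA high and 104 to 105 CPM in HLA low, and 22734 to 30359.8 CPM in RPP-A and 123 to 508 CPM in RPP libraries. Among these 7, COL3A1 in HLA low cells and Lum in RPP cells were at 0, and the part of the fibroblast and neuroendocrine markers in the integrin and laminin results was not tested. In bulk RNA, fewer cells of a kind and less RNA per cell cannot be told apart. In the mouse table, 1 library of each group stood apart from the rest of its group, EHK_RPP4 for RPP and RPPM3 for RPP-A, and members' values that rest on them are also given without them, while genes that are no members were not refitted without them.

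In H69M against H69, 31 of the 38 genes passed the filter on low counts. Of these, 26 were higher, 2 were lower (ITGA6 and LAMA3) and 3 did not pass the test (edgeR quasi-likelihood, Benjamini-Hochberg adjusted p under 0.05 over all 15445 genes tested). Of all genes tested, 72.5% were called, 35.9% higher and 36.6% lower. The median log2 fold change (H69M over H69) was 1.46 over the 31 members and -0.01 over all genes. In PD-L1 high against PD-L1 low cells, 25 members were higher, 3 were lower (ITGA2B, ITGA7 and LAMC3) and 3 did not pass. There, 78.3% of all genes were called, 39% higher and 39.4% lower, and the median was 2.56 over the members and 0 over all genes. In HLA high against HLA low H69EZ cells, 34 members passed the filter, 28 were higher, 4 were lower (ITGA2B, LAMA3, LAMA5 and LAMC3) and 2 did not pass. There, 81.3% of 14819 genes were called, 41.1% higher and 40.2% lower, and the medians were 3 and 0. In RPP-A against RPP, 30 members passed the filter, 19 were higher, 8 were lower and 3 did not pass. There, 78.2% of 14032 genes were called, 37.6% higher and 40.6% lower, and the medians were 2.08 and -0.04.

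Calls were thus frequent among all genes. Called and at least 2-fold higher were 19 members in H69M (15.2% of all genes), 23 in PD-L1 high (16.3%), 24 in HLA high (19.5%) and 18 in RPP-A cells (22.9%). Called and at least 2-fold lower were 1 member in H69M (8.55% of all genes), 3 in PD-L1 high (17%), 2 in HLA high (14.8%) and 6 in RPP-A cells (27.1%). The libraries of both groups did not overlap, with the first group higher, for 25 members in H69M (36.3% of all genes), 25 in PD-L1 high (39.8%), 28 in HLA high (45.1%) and 18 in RPP-A cells (39.7%). They did not overlap, with the first group lower, for 2 members in H69M (36.7%), 4 in PD-L1 high (40.3%), 4 in HLA high (45.1%) and 8 in RPP-A cells (42.5%). A member that passed the filter only through the group where it is high had to differ, so these counts describe the genes and are no evidence beyond each gene's own test.

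**Figure D1:**
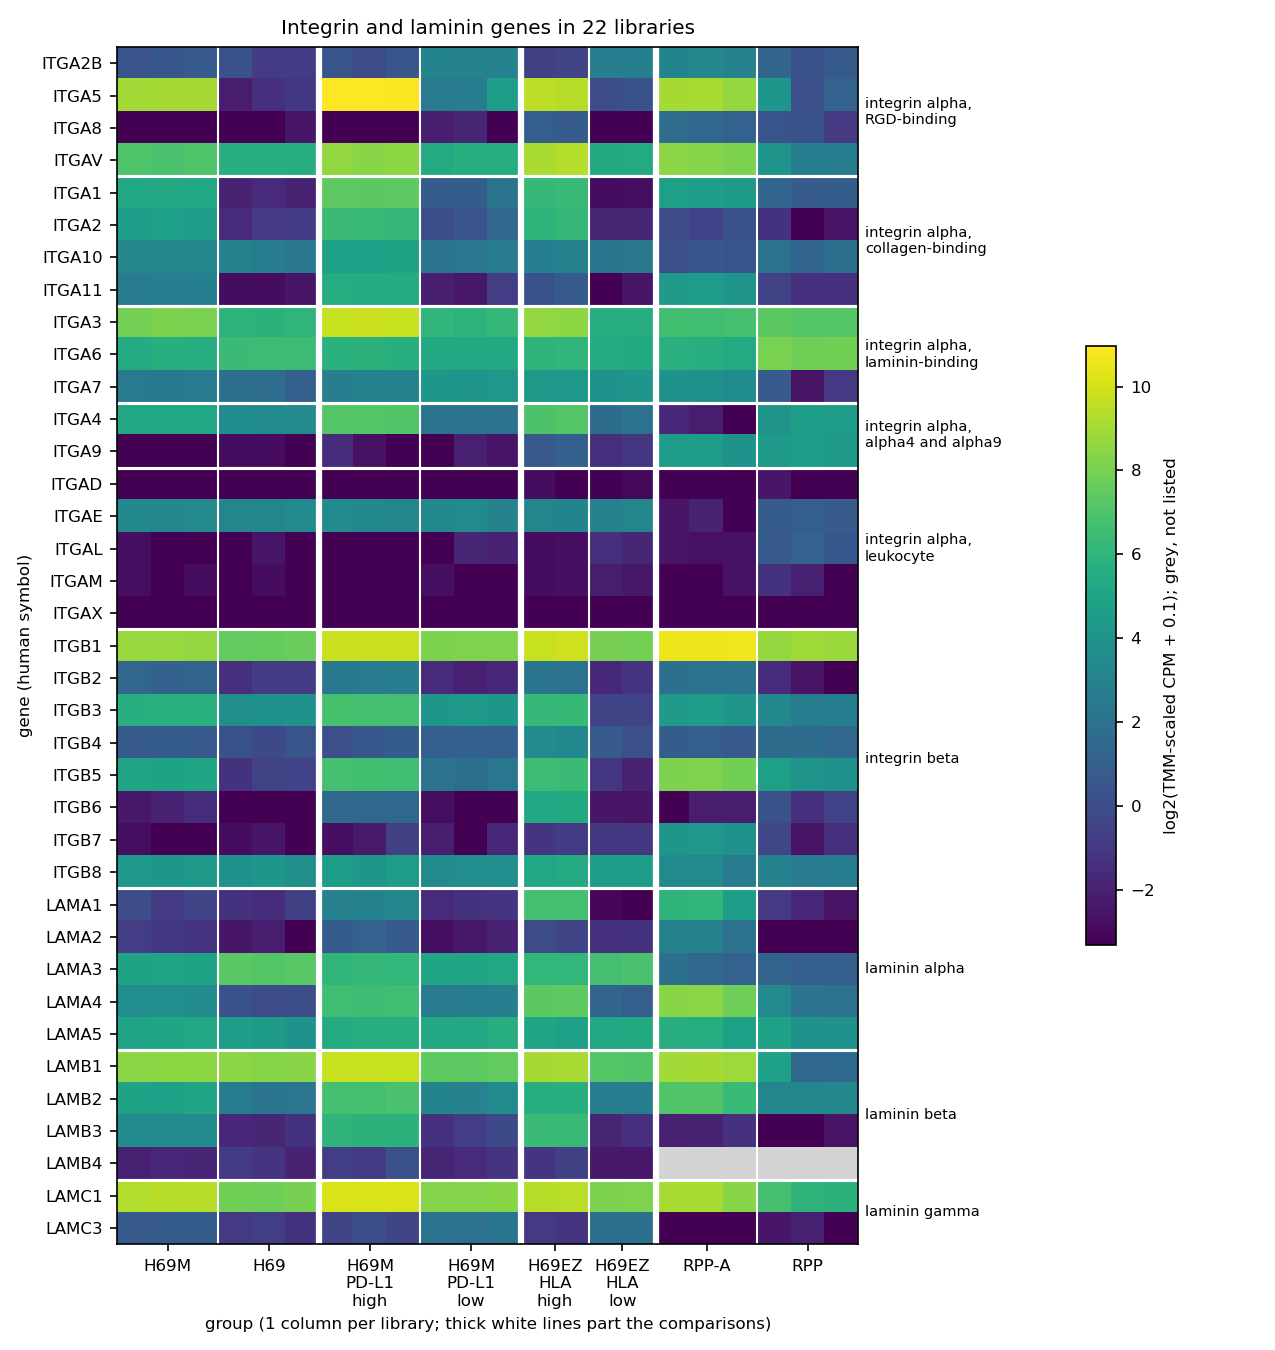
Levels of integrin and laminin genes (rows, by subunit type) in the 22 libraries (columns, by group; mouse genes under their human symbols), as log2 of CPM with a small offset. ITGA5, ITGA1 and ITGB5 are brighter in H69M, PD-L1 high, HLA high and RPP-A columns than in the columns of the group beside them, while ITGAE keeps its shade in all human columns and ITGAX is at 0 in all 22.

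These 4 comparisons share no library with each other. The H69M comparison and the PD-L1 sort both draw on H69M cells and were fitted together. All human cells came from NCI-H69, so agreement between the human comparisons is not independent recurrence. Of the 31 members tested in all 3 human comparisons, 21 were higher in each (67.7%), against 2112 of the 13621 genes tested in all 3 (15.5%), and none was lower in each (11.1% of all genes). Both human sorts together had 24 members higher and 2 lower, ITGA2B and LAMC3, where 28.2% of all genes were higher in both and 25.5% lower in both. With the mouse added, 13 of 26 members were higher in all 4 comparisons, against 10.9% of 11213 genes, and none was lower in all 4 (6.65%). These were ITGA1, ITGA5, ITGA11, ITGAV, ITGB1, ITGB2, ITGB3, ITGB5, LAMA1, LAMA2, LAMA4, LAMB2 and LAMC1. Each comparison sets MHC class I high against MHC class I low cells, and those groups also differ in derivation, sorting marker or culture. These factors cannot be told apart.

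**Figure D2:**
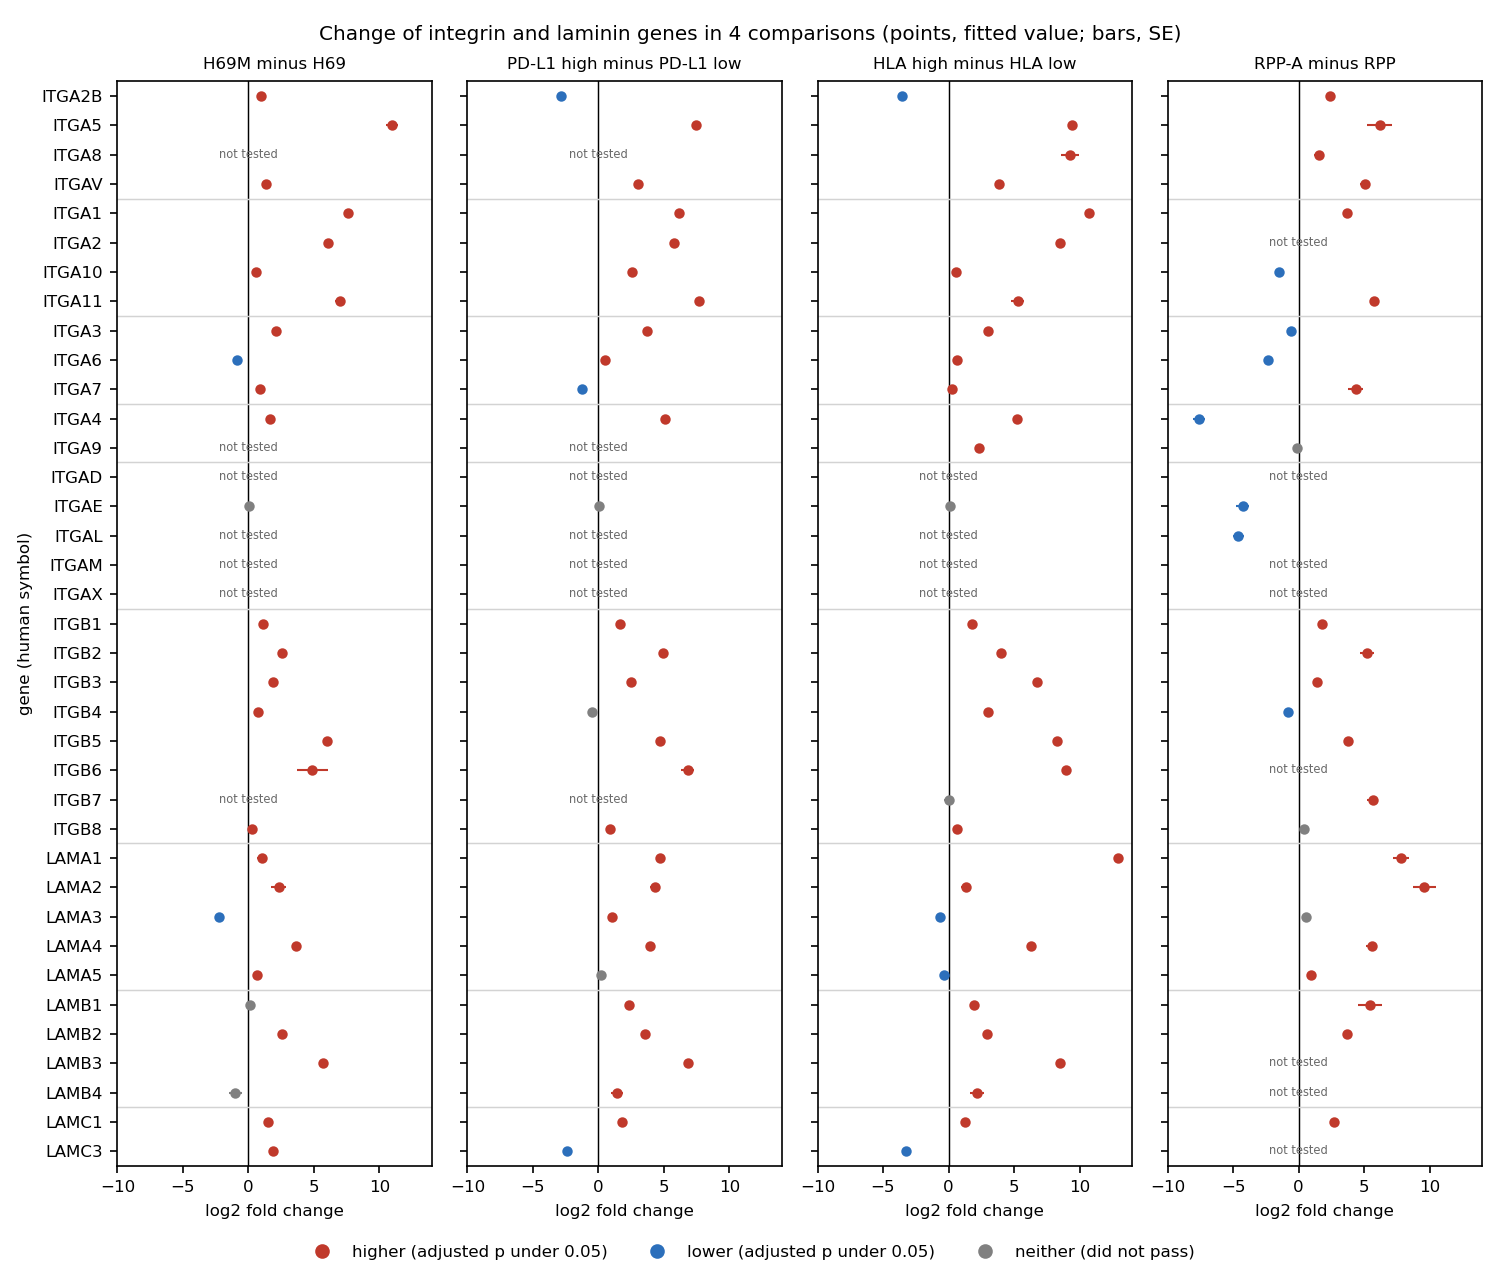
Log2 fold change of integrin and laminin genes (rows, by subunit type) in the 4 comparisons, with its standard error; the group named first is on top of the fold. Most points lie right of 0, with LAMA1 in the HLA sort farthest, a fitted value that rests on 1 count in HLA low cells, while ITGA2B and LAMC3 lie left of 0 in both human sorts, and ITGA6 in H69M and RPP-A.

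Among the RGD-binding alpha chains, ITGA5, the alpha chain of the main fibronectin receptor, was higher in all 4 comparisons. It had 506, 527 and 532 CPM in H69M libraries, against 0.121, 0.302 and 0.404 CPM in H69 libraries, a log2 fold change of 10.98 ± 0.45 (± SE; edgeR, adjusted p = 2.05e-14). It had 1991, 1996 and 1915 CPM in PD-L1 high libraries, against 5.54, 6.19 and 25.2 CPM in PD-L1 low libraries, a log2 fold change of 7.47 ± 0.30. The third PD-L1 low library was higher than the other two, and without it the log2 fold change was 8.39. ITGA5 had 734 and 677 CPM in HLA high and 0.929 and 1.09 CPM in HLA low libraries (log2 fold change 9.45 ± 0.11). Mouse Itga5 had 526, 539.9 and 422 CPM in RPP-A and 17.8, 1.04 and 2.18 CPM in RPP libraries (log2 fold change 6.18 ± 0.93). EHK_RPP4 was the highest RPP library, and without it the log2 fold change was 8.31. In all 4 comparisons the groups did not overlap.

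ITGAV, the partner of beta3, beta5, beta6 and beta8, was higher in all 4 comparisons and well above 0 in both groups of each. ITGAV had 131, 117 and 132 CPM in H69M and 50.6, 50.4 and 47.2 CPM in H69 libraries (log2 fold change 1.35 ± 0.07). ITGAV had 398, 341 and 369.8 CPM in PD-L1 high and 42.5, 47.3 and 46.1 CPM in PD-L1 low libraries (log2 fold change 3.03 ± 0.07). PD-L1 low and H69 cells overlapped for ITGAV and did not pass the test, at means of 45.3 and 49.4 CPM. ITGAV had 573 and 659 CPM in HLA high and 41.6 and 42.4 CPM in HLA low libraries (log2 fold change 3.87 ± 0.07). Itgav had 354, 332 and 288 CPM in RPP-A and 16.6, 6.72 and 6.47 CPM in RPP libraries (log2 fold change 5.04 ± 0.38; 5.66 without EHK_RPP4). No group overlapped its counterpart in the 4 comparisons.

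ITGA8, a receptor chain for nephronectin, passed the filter in 1 of the human tables, that of the HLA sort. It had 1.8 and 1.59 CPM in HLA high libraries and no count in HLA low libraries, which makes it at least 53.4-fold higher against a floor of 3 counts over the group. In the H69 table ITGA8 had 0 counts in H69M and 1 in H69 cells, and 0 in PD-L1 high and 7 in PD-L1 low cells. Itga8 was 2.68 ± 0.582 CPM in RPP-A and 0.918 ± 0.433 CPM in RPP cells (SD, n = 3 each; log2 fold change 1.55 ± 0.38).

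ITGA2B, the alpha chain of the platelet fibrinogen receptor alphaIIb-beta3, was lower in the MHC class I high fraction of both human sorts. It had 1.22, 0.855 and 1.34 CPM in PD-L1 high libraries, against 8.69, 8.14 and 7.81 CPM in PD-L1 low libraries (log2 fold change -2.87 ± 0.20; edgeR, adjusted p = 4.82e-11). It had 0.541 and 0.678 CPM in HLA high libraries, against 6.86 and 7.1 CPM in HLA low libraries (log2 fold change -3.53 ± 0.18; edgeR, adjusted p = 7.87e-83). Neither sort had overlapping groups. In the unsorted cells the direction was opposite, and ITGA2B had 1.17, 1.39 and 1.64 CPM in H69M and 1.09, 0.491 and 0.484 CPM in H69 libraries (log2 fold change 0.97 ± 0.28). The adjusted p was 0.0504 by edgeR without H69 replicate 2. PD-L1 low cells lay 3.51 ± 0.21 above H69 on the log2 scale. Mouse Itga2b also went opposite to the human sorts and had 8.54, 9.58 and 7.81 CPM in RPP-A and 2.45, 1.11 and 1.55 CPM in RPP libraries (log2 fold change 2.36 ± 0.28). It was set beside 4 other megakaryocyte and platelet markers (GP1BA, GP9, PF4, PPBP), of which PF4 and PPBP were at 0 in PD-L1 low cells and GP9, PF4 and PPBP in HLA low cells. The summed level of all 5, ITGA2B included, was 1.12 to 1.55 CPM in PD-L1 high and 7.88 to 8.73 CPM in PD-L1 low, and 1.32 to 1.43 CPM in HLA high and 7.75 to 8.03 CPM in HLA low libraries. ITGA2B alone averaged 1.14 CPM in PD-L1 high and 8.21 CPM in PD-L1 low cells. It averaged 0.609 CPM in HLA high and 6.98 CPM in HLA low cells. The change of the sum in the human sorts was thus mostly that of ITGA2B itself. In the mouse the 5 summed to 16.9 to 28.2 CPM in RPP-A and 1.18 to 2.53 CPM in RPP libraries, with Gp1ba and Gp9 at 0 in RPP-A and Gp9, Pf4 and Ppbp at 0 in RPP. Ppbp, a platelet chemokine, averaged 12 CPM in RPP-A. The part of these markers in the ITGA2B result was not tested.

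The collagen-binding alpha chains ITGA1, ITGA2 and ITGA11 were below 1 CPM in H69 and HLA low libraries and higher in H69M, PD-L1 high and HLA high cells. ITGA1, a receptor chain that prefers basement membrane collagen, had 35.8, 39.6 and 35.7 CPM in H69M and 0.161, 0.227 and 0.161 CPM in H69 libraries (log2 fold change 7.57 ± 0.24). ITGA1 had 169, 164 and 173 CPM in PD-L1 high and 1.68, 1.72 and 4.34 CPM in PD-L1 low libraries (log2 fold change 6.16 ± 0.14). ITGA1 had 74.2 and 82.4 CPM in HLA high and 0.0395 and 0.0464 CPM in HLA low libraries (log2 fold change 10.75 ± 0.18). The groups did not overlap in any of the 3, and the third PD-L1 low library was the highest of its group. ITGA2, which binds fibrillar collagen, had 25.7, 26.5 and 24 CPM in H69M and 0.241, 0.415 and 0.484 CPM in H69 libraries (log2 fold change 6.11 ± 0.21). ITGA2 had 84.8, 79.3 and 74 CPM in PD-L1 high and 0.975, 1.16 and 2.53 CPM in PD-L1 low libraries (log2 fold change 5.79 ± 0.15). ITGA2 had 63 and 72.8 CPM in HLA high and 0.178 and 0.186 CPM in HLA low libraries (log2 fold change 8.52 ± 0.15). Its groups did not overlap in any of the 3 either, and the third PD-L1 low library was again the highest of its group.

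ITGA11, a fibrillar collagen receptor chain best known from fibroblasts, had 5.84, 6.77 and 7.19 CPM in H69M libraries against 3 counts in all of H69, a ratio of 141 with a 95% exact counting interval of 47.9 to 685. ITGA11 had 45.2, 44.2 and 43.5 CPM in PD-L1 high and 0.133, 0.093 and 0.506 CPM in PD-L1 low libraries (log2 fold change 7.70 ± 0.18; 8.54 without PD-L1 low replicate 3). In the HLA sort it had 1.1 and 1.64 CPM in HLA high libraries against 3 counts in HLA low cells, a ratio of 41.7 with an interval of 13.9 to 205. All 3 counts were in HLA low replicate 2, and without it the group had none. The fitted log2 fold change was 5.27, and 4.22 without HLA low replicate 1 and 8.96 without HLA low replicate 2. These intervals cover counting error only, and the groups did not overlap.

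ITGA10, the fourth collagen receptor chain, was above 0 in every human library. It was 9.57 ± 0.451 CPM in H69M and 6.42 ± 1.19 CPM in H69 cells (SD, n = 3 each; log2 fold change 0.54 ± 0.11). It was 7.33 ± 0.397 CPM in HLA high and 4.9 ± 0.389 CPM in HLA low cells (SD, n = 2 each; log2 fold change 0.58 ± 0.12). Both were the smallest changes among the 4 collagen receptor chains in their comparison. In the PD-L1 sort ITGA10 had 27.8, 29.1 and 30 CPM in PD-L1 high and 4.48, 4.7 and 5.86 CPM in PD-L1 low libraries (log2 fold change 2.56 ± 0.11).

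In the mouse lines the collagen receptor chains went different ways. Itga1 had 27.3, 24.6 and 22 CPM in RPP-A and 2.45, 1.59 and 1.76 CPM in RPP libraries (log2 fold change 3.68 ± 0.20), and Itga11 had 20.4, 23.9 and 16.4 CPM in RPP-A and 0.571, 0.277 and 0.281 CPM in RPP libraries (log2 fold change 5.75 ± 0.30). Itga10 fell, and had 1.02, 1.38 and 1.19 CPM in RPP-A and 4.08, 2.35 and 3.59 CPM in RPP libraries (log2 fold change -1.47 ± 0.29; edgeR, adjusted p = 0.00188). Itga2 did not pass the filter, with at most 1.12 CPM in any library. The groups did not overlap for Itga1, Itga10 or Itga11.

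The start-site regions of 4 genes are printed because these genes showed different patterns. ITGA5 and ITGA1 were higher in all 4 comparisons. ITGB6 was higher in the 3 human comparisons, in H69M with 12 counts against none in H69, and Itgb6 was not tested. ITGA2B was lower in both human sorts and higher in H69M and RPP-A. Each sequence is the 250 bases before the start in RefSeq's GRCh38.p14, which is not the build named for the counts. It reads 5′ to 3′ on the gene's strand, with each CG in capitals. The ITGA5 window is chr12:54419267-54419516 on the minus strand and the ITGA1 window chr5:52787666-52787915 on the plus strand. The ITGB6 window is chr2:160200273-160200522 on the minus strand and the ITGA2B window chr17:44389650-44389899 on the minus strand.
ITGA5: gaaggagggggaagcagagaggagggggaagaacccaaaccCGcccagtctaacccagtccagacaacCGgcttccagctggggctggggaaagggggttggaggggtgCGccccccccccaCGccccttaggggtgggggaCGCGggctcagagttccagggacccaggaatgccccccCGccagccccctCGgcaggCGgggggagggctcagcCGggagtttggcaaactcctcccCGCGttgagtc
ITGA1: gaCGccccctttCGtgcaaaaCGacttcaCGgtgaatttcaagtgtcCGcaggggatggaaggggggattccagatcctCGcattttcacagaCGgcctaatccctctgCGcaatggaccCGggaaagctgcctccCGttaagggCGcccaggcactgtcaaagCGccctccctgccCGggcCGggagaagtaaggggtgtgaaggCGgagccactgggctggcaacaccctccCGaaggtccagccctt
ITGB6: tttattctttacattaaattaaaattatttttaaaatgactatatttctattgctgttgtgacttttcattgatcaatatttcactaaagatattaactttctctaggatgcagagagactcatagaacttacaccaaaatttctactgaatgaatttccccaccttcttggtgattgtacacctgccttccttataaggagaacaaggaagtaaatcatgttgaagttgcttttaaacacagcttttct
ITGA2B: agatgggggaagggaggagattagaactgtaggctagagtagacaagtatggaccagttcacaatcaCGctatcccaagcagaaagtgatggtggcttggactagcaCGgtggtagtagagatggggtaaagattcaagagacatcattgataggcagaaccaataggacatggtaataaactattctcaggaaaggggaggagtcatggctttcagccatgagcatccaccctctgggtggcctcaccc

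The ITGA5 window holds 12 CG and the ITGA1 window 16, the ITGB6 window 0 and the ITGA2B window 2. RefSeq entries matched 26 of the human members, with 33 start sites. The median ratio of observed to expected CG was 0.52 over these 33 windows and 0.56 over all 35114 promoters. TGANTCA, the AP-1 core, was found on either strand in 2 of the 33 windows (6.06%; LAMA3 and 1 start of LAMB3), against 6.57% of all promoters. GGAATG, the TEAD core, was found on either strand in 4 windows (12.1%; ITGA5 among them), against 11.9% of all promoters. A match is a run of letters and not a site in use, and the shares of the members lay near those of all promoters.

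Among the laminin-binding alpha chains, ITGA3 and ITGA6, the usual receptors for laminin-332 and laminin-511, took different courses. ITGA3 had 250.2, 282 and 267 CPM in H69M and 61.1, 57.1 and 64.5 CPM in H69 libraries (log2 fold change 2.14 ± 0.07). ITGA3 had 866, 908 and 859.7 CPM in PD-L1 high and 68.6, 59.6 and 72.5 CPM in PD-L1 low libraries (log2 fold change 3.72 ± 0.07). ITGA3 had 404 and 373 CPM in HLA high and 46.9 and 47.9 CPM in HLA low libraries (log2 fold change 3.03 ± 0.07). All MHC class I high libraries thus lay above the low ones in the human tables. In the mouse Itga3 was lower, and had 98.9, 96.8 and 109 CPM in RPP-A and 165, 147 and 144 CPM in RPP libraries (log2 fold change -0.58 ± 0.10; edgeR, adjusted p = 0.000843).

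ITGA6 was lower in H69M and in RPP-A and slightly higher in the MHC class I high fraction of both sorts. ITGA6 had 43.9, 50.1 and 47.7 CPM in H69M and 86.5, 87.7 and 89.8 CPM in H69 libraries (log2 fold change -0.90 ± 0.06; edgeR, adjusted p = 6.09e-11). Itga6 had 53.1, 49 and 42.7 CPM in RPP-A and 270.4, 236 and 238 CPM in RPP libraries (log2 fold change -2.36 ± 0.12; edgeR, adjusted p = 1.11e-06). Neither pair of groups overlapped. ITGA6 had 56, 57.7 and 49.9 CPM in PD-L1 high and 39.8, 38.7 and 39.6 CPM in PD-L1 low libraries (log2 fold change 0.48 ± 0.06). ITGA6 had 63.3 and 67.9 CPM in HLA high and 44.4 and 41.6 CPM in HLA low libraries (log2 fold change 0.61 ± 0.07). Both H69M fractions lay below H69 for ITGA6 (PD-L1 low minus H69, log2 fold change -1.16 ± 0.06).

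ITGA7, a laminin receptor chain of muscle, was highest in PD-L1 low cells of the H69 table. It had 6.9, 8.17 and 8.09 CPM in PD-L1 high and 18.5, 16.8 and 19.4 CPM in PD-L1 low libraries (log2 fold change -1.24 ± 0.12; edgeR, adjusted p = 6.87e-09). It was 5.84 ± 0.411 CPM in H69M and 3.05 ± 0.922 CPM in H69 cells (SD, n = 3 each; log2 fold change 0.86 ± 0.15). The HLA sort differed by less than 2-fold, at 20.3 ± 0.649 CPM in HLA high and 16.5 ± 1.61 CPM in HLA low cells (SD, n = 2 each; log2 fold change 0.30 ± 0.09). That call was lost on library totals without TMM (edgeR, adjusted p = 0.0936) and without HLA low replicate 1 (edgeR, adjusted p = 0.162). Itga7 had 15.6, 14.1 and 12.1 CPM in RPP-A and 1.63, 0.0693 and 0.422 CPM in RPP libraries (log2 fold change 4.36 ± 0.57; 5.83 without EHK_RPP4).

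ITGA4, which pairs with beta1 to bind fibronectin and VCAM1, was higher in the human comparisons and lower in the mouse one. ITGA4 had 37.5, 36.1 and 36.4 CPM in H69M and 12.3, 11.3 and 11.3 CPM in H69 libraries (log2 fold change 1.65 ± 0.06). ITGA4 had 144, 139 and 138 CPM in PD-L1 high and 4.17, 4.42 and 4.12 CPM in PD-L1 low libraries (log2 fold change 5.04 ± 0.07). ITGA4 had 123 and 139.9 CPM in HLA high and 3.18 and 3.97 CPM in HLA low libraries (log2 fold change 5.21 ± 0.09). No groups overlapped, and PD-L1 low cells had less ITGA4 than H69 cells (log2 fold change -1.46 ± 0.09; edgeR, adjusted p = 9.18e-12). Itga4 had 0.203, 0.115 and 0 CPM in RPP-A libraries, 5 counts in all, against 17, 25.8 and 22.4 CPM in RPP libraries (log2 fold change -7.60 ± 0.43, or -8.31 without RPPM1; edgeR, adjusted p = 2.02e-06).

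ITGA9, the relative of alpha4 that binds tenascin-C and VCAM1, passed the filter in the HLA sort and in the mouse. It was 1.72 ± 0.367 CPM in HLA high and 0.334 ± 0.0529 CPM in HLA low cells (SD, n = 2 each; log2 fold change 2.35 ± 0.28). Itga9 did not pass the test, with 22.9, 23.8 and 15.9 CPM in RPP-A and 21.4, 24.2 and 21 CPM in RPP libraries, which overlapped. The 95% interval of its log2 difference was -0.42 to 0.24. It was called lower, at -0.46, on library totals without TMM (edgeR, adjusted p = 0.0352).

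The leukocyte alpha chains were near 0 in the human libraries except ITGAE, which with beta7 binds E-cadherin. ITGAE did not pass the test in any human comparison. It was 10 ± 0.244 CPM in H69M and 9.97 ± 1.37 CPM in H69, and 10.3 ± 1.28 CPM in PD-L1 high and 9.99 ± 1.59 CPM in PD-L1 low cells (SD, n = 3 each). It was 8.82 ± 0.16 CPM in HLA high and 8.37 ± 0.766 CPM in HLA low cells (SD, n = 2 each). The 95% intervals of its log2 difference lay between -0.21 and 0.28 across the 3 comparisons. ITGAL, ITGAM, ITGAD and ITGAX, chains of the beta2 integrins of white blood cells, had at most 0.277 CPM in any human library and failed the filter, and ITGAX had no count in any of the 22 libraries. Itgae had 0.0678, 0.172 and 0 CPM in RPP-A and 1.71, 1.94 and 1.62 CPM in RPP libraries (log2 fold change -4.28 ± 0.53; -5.41 without RPPM2). Itgal had 3 counts in all of RPP-A against 71 in RPP, a ratio of 0.0359 with a 95% exact interval of 0.00723 to 0.109. Of the 9 leukocyte markers in the mouse table, Cd3e and Spi1 were at 0 in both groups, and the summed level was 32.9 to 37 CPM in RPP-A and 25.1 to 37.6 CPM in RPP libraries.

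**Figure D3:**
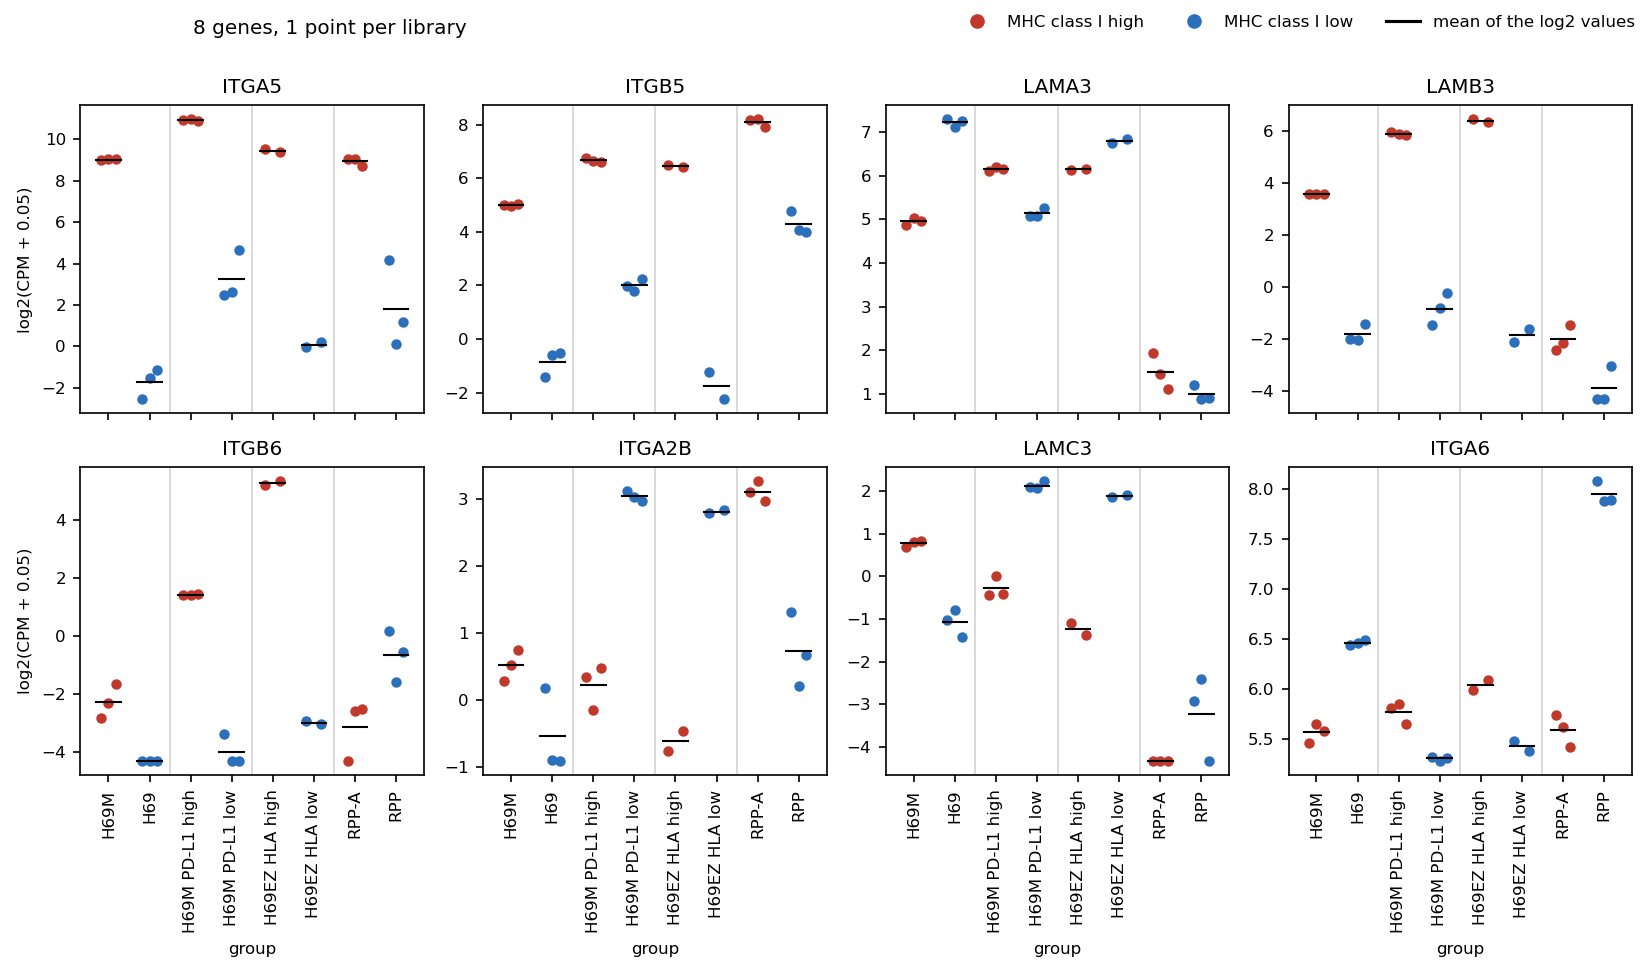
Levels of 8 genes in every library (1 point each, log2 of CPM with a small offset) in the 8 groups, each MHC class I high group left of its MHC class I low counterpart; bars are means of the log2 values. ITGA5, ITGB5 and LAMB3 separate the human pairs without overlap, ITGA2B and LAMC3 are higher in the PD-L1 low and HLA low points, and LAMA3 and ITGA6 are highest in H69 among the first 4 groups.

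Of the integrin beta chains tested, 7 of 7 were higher in H69M (35.9% of all genes), 6 of 7 in PD-L1 high cells (39%), 7 of 8 in HLA high cells (41.1%) and 5 of 7 in RPP-A cells (37.6%). ITGB1, the partner of most alpha chains above, had 431, 433 and 398 CPM in H69M and 183, 189 and 207 CPM in H69 libraries (log2 fold change 1.13 ± 0.05). ITGB1 had 899.9, 909 and 901 CPM in PD-L1 high and 287, 291 and 290.4 CPM in PD-L1 low libraries (log2 fold change 1.64 ± 0.05). ITGB1 had 862 and 960.4 CPM in HLA high and 259 and 256 CPM in HLA low libraries (log2 fold change 1.82 ± 0.06; edgeR, adjusted p = 5.53e-186). The groups were apart in each. Itgb1 had 1530.4, 1523 and 1613 CPM in RPP-A and 409.6, 483 and 457 CPM in RPP libraries (log2 fold change 1.79 ± 0.12), also without overlap. The log2 change of ITGB1, between 1.13 and 1.82, was smaller in every comparison than that of ITGA5 or ITGA1, differences that were not tested.

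Among the partners of alphaV, ITGB5, a vitronectin receptor chain, was below 1 CPM in H69 and HLA low libraries, while ITGB3 was below 1 CPM in HLA low ones. ITGB5 had 31.9, 31.4 and 33 CPM in H69M and 0.322, 0.604 and 0.646 CPM in H69 libraries (log2 fold change 5.98 ± 0.15; edgeR, adjusted p = 6.73e-18). ITGB5 had 109, 101 and 96.1 CPM in PD-L1 high and 3.86, 3.44 and 4.7 CPM in PD-L1 low libraries (log2 fold change 4.70 ± 0.10). ITGB5 had 90.2 and 86.2 CPM in HLA high and 0.376 and 0.162 CPM in HLA low libraries (log2 fold change 8.30 ± 0.14; 9.06 without HLA low replicate 1). Its groups did not overlap, nor did those of the mouse, where Itgb5 had 286, 292 and 242 CPM in RPP-A and 27.3, 16.8 and 16 CPM in RPP libraries (log2 fold change 3.77 ± 0.23). ITGB3, which serves both alphaV and alphaIIb, had 51.3, 53.7 and 53.4 CPM in H69M and 13.4, 14.3 and 15 CPM in H69 libraries (log2 fold change 1.90 ± 0.06). ITGB3 had 114, 107 and 106 CPM in PD-L1 high and 19.1, 20 and 18.9 CPM in PD-L1 low libraries (log2 fold change 2.49 ± 0.06). Both were without overlap, as was the HLA sort. There ITGB3 had 74.3 and 74.6 CPM in HLA high and 0.672 and 0.673 CPM in HLA low libraries (log2 fold change 6.78 ± 0.12). Itgb3 had 21, 24.4 and 17.7 CPM in RPP-A and 10, 6.23 and 7.03 CPM in RPP libraries (log2 fold change 1.44 ± 0.21).

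ITGB6, whose pair with alphaV frees active TGF-beta in epithelia, was above 1 CPM in the H69 table only in PD-L1 high libraries. In the H69EZ table it was so only in HLA high libraries. ITGB6 had 36.4 and 40.2 CPM in HLA high and 0.0791 and 0.0696 CPM in HLA low libraries (log2 fold change 8.95 ± 0.19). It had 2.59, 2.62 and 2.67 CPM in PD-L1 high libraries against 1 count in PD-L1 low cells, a ratio of 152 with a 95% exact interval of 26.8 to 6040. That count was in PD-L1 low replicate 1, and without it the group had none. H69M cells had 12 counts of ITGB6 and H69 cells none, at least 3.7-fold higher against the floor. Itgb6 did not pass the filter.

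ITGB8, the other TGF-beta-freeing partner of alphaV, differed by less than 2-fold in each human comparison. It was 19.2 ± 0.937 CPM in H69M and 15.4 ± 2.67 CPM in H69 cells, which overlapped (SD, n = 3 each; log2 fold change 0.29 ± 0.11). That call was lost without H69 replicate 1 (0.25), H69 replicate 3 (0.21) or H69M replicate 3 (0.26). It was 22 ± 2.91 CPM in PD-L1 high and 12.2 ± 1.05 CPM in PD-L1 low cells (SD, n = 3 each; log2 fold change 0.86 ± 0.12). It was 39.5 ± 4.28 CPM in HLA high and 25.7 ± 0.232 CPM in HLA low cells (SD, n = 2 each; log2 fold change 0.62 ± 0.08). Itgb8 did not pass the test, with 11.2, 11.1 and 5.5 CPM in RPP-A and 8.07, 6.1 and 6.54 CPM in RPP libraries. It was called at a log2 fold change of 0.70 without RPPM3.

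ITGB4, the hemidesmosome partner of alpha6, was called at more than 2-fold higher in the HLA sort alone among the 4 comparisons, and whether its change differs between the tables was not tested. ITGB4 had 11.8 and 10.2 CPM in HLA high and 1.64 and 1.02 CPM in HLA low libraries (log2 fold change 3.03 ± 0.14; edgeR, adjusted p = 1.04e-102). ITGB4 had 1.53, 1.74 and 1.64 CPM in H69M and 1.09, 0.793 and 1.21 CPM in H69 libraries (log2 fold change 0.72 ± 0.23), a call that was lost without H69 replicate 2 (edgeR, adjusted p = 0.0705). In the PD-L1 sort it did not pass, with 1.03, 1.44 and 1.76 CPM in PD-L1 high and 1.86, 2.05 and 1.81 CPM in PD-L1 low libraries. Its log2 fold change there was -0.48 ± 0.22, and it was called at -0.67 without PD-L1 high replicate 3 and at -0.62 on library totals without TMM. Itgb4 was lower in RPP-A and had 1.76, 1.89 and 1.62 CPM in RPP-A and 3.26, 3.26 and 2.74 CPM in RPP libraries (log2 fold change -0.81 ± 0.21). COL17A1, the hemidesmosome collagen that ITGB4 binds, averaged 39.9 CPM in HLA high and 0.735 CPM in HLA low cells (log2 fold change 5.75 ± 0.13). It averaged 1.16 CPM in H69M and 13.5 CPM in H69 cells (log2 fold change -3.52 ± 0.16).

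ITGB2 and ITGB7, the beta chains best known from white blood cells, were below 7 CPM in all human libraries. ITGB2 had 2.52, 2.09 and 2.26 CPM in H69M and 0.282, 0.453 and 0.484 CPM in H69 libraries (log2 fold change 2.53 ± 0.25). ITGB2 had 5.38, 6.04 and 6.89 CPM in PD-L1 high and 0.222, 0.14 and 0.217 CPM in PD-L1 low libraries (log2 fold change 4.95 ± 0.25). ITGB2 had 4.67 and 3.96 CPM in HLA high and 0.198 and 0.348 CPM in HLA low libraries (log2 fold change 4.01 ± 0.24). Its groups did not overlap in the 3 human comparisons, and its alpha partners ITGAL, ITGAM, ITGAX and ITGAD were at or near 0 there. Itgb2 had 3.66, 3.85 and 4.43 CPM in RPP-A and 0.245, 0.0693 and 0 CPM in RPP libraries (log2 fold change 5.23 ± 0.52; 6.57 without EHK_RPP4). The pan-leukocyte gene PTPRC averaged 0.1 CPM in H69M and 1.35 CPM in H69, 0.41 CPM in PD-L1 high and 0.0389 CPM in PD-L1 low, and 0.676 CPM in HLA high and 0.0412 CPM in HLA low cells. Of the 10 leukocyte markers in each human table, the summed level was 57.4 to 60.4 CPM in H69M and 22.7 to 23.6 CPM in H69, and 32 to 33.8 CPM in PD-L1 high and 50.8 to 59.1 CPM in PD-L1 low libraries. It was 28.2 to 31.2 CPM in HLA high and 14.5 to 16.6 CPM in HLA low libraries, with CD3E at 0 in all 6 human groups. The part of these markers in the ITGB2 result was not tested.

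ITGB7 did not pass the filter in the H69 table. It did not pass the test in the HLA sort either, at 0.415 ± 0.0769 CPM in HLA high and 0.395 ± 0.000588 CPM in HLA low cells (SD, n = 2 each). Itgb7 had 18.7, 19.8 and 15.2 CPM in RPP-A and 0.734, 0.0693 and 0.281 CPM in RPP libraries (log2 fold change 5.66 ± 0.42; 6.66 without EHK_RPP4), without overlap.

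Among the laminin alpha chains, LAMA4, the chain of laminin-411 made by mesenchymal and endothelial cells, was higher in all 4 comparisons. LAMA4 had 12.8, 12.7 and 12 CPM in H69M and 1.13, 0.869 and 0.969 CPM in H69 libraries (log2 fold change 3.65 ± 0.12). LAMA4 had 96.1, 93.7 and 95.2 CPM in PD-L1 high and 6.03, 6.33 and 6.94 CPM in PD-L1 low libraries (log2 fold change 3.90 ± 0.07). LAMA4 had 167 and 172 CPM in HLA high and 2.43 and 1.88 CPM in HLA low libraries (log2 fold change 6.29 ± 0.10). The groups were far apart in each. Lama4 had 343, 352 and 227 CPM in RPP-A and 11.2, 4.16 and 4.15 CPM in RPP libraries (log2 fold change 5.58 ± 0.43; 6.25 without EHK_RPP4). The 5 endothelial markers of the H69 table summed to 1.94 to 2.43 CPM in H69M and 2.82 to 3.39 CPM in H69, and 6.75 to 7.17 CPM in PD-L1 high and 1.02 to 1.45 CPM in PD-L1 low libraries, with KDR and TIE1 at 0 in H69. Of them, 4 are in the H69EZ table and summed to 8.29 to 9.33 CPM in HLA high and 0.116 to 0.178 CPM in HLA low libraries, with KDR and TIE1 at 0 in HLA low. In the mouse the 5 markers summed to 2.12 to 3.33 CPM in RPP-A and 39.6 to 46.9 CPM in RPP libraries, with Cdh5 and Tie1 at 0 in RPP-A. Their part in the LAMA4 result was not tested.

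LAMA1, the chain of embryonic basement membranes, had 103 and 103 CPM in HLA high libraries against 1 count in all of HLA low, a ratio of 9650 with a 95% exact counting interval of 1730 to 381000. That count was in HLA low replicate 1, and without it the group had none. The fitted log2 fold change was 12.91, and 15.14 without HLA low replicate 1 and 12.16 without HLA low replicate 2. In the H69 table LAMA1 had 7.29, 7.64 and 9.14 CPM in PD-L1 high and 0.222, 0.326 and 0.362 CPM in PD-L1 low libraries (log2 fold change 4.73 ± 0.25), without overlap. LAMA1 had 0.944, 0.448 and 0.689 CPM in H69M and 0.322, 0.264 and 0.565 CPM in H69 libraries (log2 fold change 1.00 ± 0.37), which overlapped. That call was lost without H69 replicate 1 (0.94), H69 replicate 2 (0.78) or H69M replicate 1 (0.74). Lama1 had 62.7, 66.5 and 25.6 CPM in RPP-A and 0.408, 0.208 and 0.0703 CPM in RPP libraries (log2 fold change 7.82 ± 0.61; 8.49 without EHK_RPP4), and RPPM3 was the lowest RPP-A library.

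LAMA2, the muscle and nerve chain, had at most 2.19 CPM in any human library. LAMA2 had 1.71, 2.19 and 1.62 CPM in PD-L1 high and 0.0443, 0.093 and 0.145 CPM in PD-L1 low libraries (log2 fold change 4.33 ± 0.40). It was 0.412 ± 0.0761 CPM in H69M and 0.0646 ± 0.0583 CPM in H69 cells (SD, n = 3 each; log2 fold change 2.30 ± 0.54). It was 0.789 ± 0.158 CPM in HLA high and 0.321 ± 0.00609 CPM in HLA low cells (SD, n = 2 each; log2 fold change 1.32 ± 0.34). The PD-L1 high libraries were the highest of the H69 table. Lama2 had 7.72, 7.98 and 3.87 CPM in RPP-A libraries and no count in RPP, at least 89.2-fold higher against the floor of 3 counts.

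LAMA3, the alpha chain of the epithelial laminin-332, was lower in H69M and HLA high cells. It had 29.4, 32.5 and 31.1 CPM in H69M libraries, against 156, 139 and 153 CPM in H69 libraries (log2 fold change -2.27 ± 0.06; edgeR, adjusted p = 5.05e-17). It had 69.9 and 71.3 CPM in HLA high libraries, against 108 and 115 CPM in HLA low libraries (log2 fold change -0.66 ± 0.07; edgeR, adjusted p = 3.75e-22). The PD-L1 sort went the other way, yet both fractions lay below H69. There LAMA3 had 68.4, 73.6 and 70.7 CPM in PD-L1 high and 33.7, 33.9 and 38.1 CPM in PD-L1 low libraries (log2 fold change 1.01 ± 0.07). Lama3 did not pass the test, with 3.79, 2.7 and 2.12 CPM in RPP-A and 2.28, 1.8 and 1.83 CPM in RPP libraries, which overlapped. It was called at a log2 fold change of 0.72 without RPPM3.

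LAMA5, the chain of laminin-511, differed by less than 2-fold wherever it was called. It was 34.1 ± 1.87 CPM in H69M and 21.3 ± 4.87 CPM in H69 cells (SD, n = 3 each; log2 fold change 0.64 ± 0.11). It was 31.5 ± 3.15 CPM in HLA high and 39.2 ± 2.29 CPM in HLA low cells (SD, n = 2 each; log2 fold change -0.31 ± 0.08), a call lost without HLA low replicate 2 (edgeR, adjusted p = 0.0528). In the PD-L1 sort LAMA5 did not pass, with 44, 48.5 and 51.3 CPM in PD-L1 high and 39, 39.6 and 46.9 CPM in PD-L1 low libraries, which overlapped. It was called there at a log2 fold change of 0.28 without PD-L1 low replicate 3. Lama5 was 40 ± 10.7 CPM in RPP-A and 20.5 ± 7.55 CPM in RPP cells (SD, n = 3 each; log2 fold change 0.97 ± 0.29), with overlap. That call was lost on library totals without TMM (0.60), without RPP1, RPP2 or RPPM1 (0.84 each) and without RPPM2 (0.88).

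Of the laminin beta chains, LAMB3, specific to laminin-332, had the largest change in each human comparison. LAMB3 had 11.7, 11.7 and 11.9 CPM in H69M and 0.201, 0.189 and 0.323 CPM in H69 libraries (log2 fold change 5.71 ± 0.19). LAMB3 had 62.3, 58.5 and 57.1 CPM in PD-L1 high and 0.31, 0.512 and 0.796 CPM in PD-L1 low libraries (log2 fold change 6.87 ± 0.14). LAMB3 had 86.8 and 80.7 CPM in HLA high and 0.178 and 0.278 CPM in HLA low libraries (log2 fold change 8.53 ± 0.15). Its groups did not overlap in any of the 3. LAMB3 and LAMA3, chains of the same laminin-332, did not move together in H69M, where LAMB3 was 5.71 higher while LAMA3 fell by 2.27 on the log2 scale. Nor did they in the HLA sort, with log2 fold changes of 8.53 for LAMB3 and -0.66 for LAMA3. In the PD-L1 sort both were higher (6.87 and 1.01). Lamb3 did not pass the filter in the mouse, with 10 counts in RPP-A and 1 in RPP.

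LAMB2, a beta chain of muscle, kidney and vessel basement membranes, was higher in all 4 comparisons. LAMB2 had 29.8, 28.4 and 32 CPM in H69M and 6.28, 4.42 and 4.76 CPM in H69 libraries (log2 fold change 2.53 ± 0.12). LAMB2 had 107, 108 and 116 CPM in PD-L1 high and 8.64, 7.95 and 11.9 CPM in PD-L1 low libraries (log2 fold change 3.57 ± 0.11). LAMB2 had 50.8 and 50.3 CPM in HLA high and 6.66 and 6.27 CPM in HLA low libraries (log2 fold change 2.97 ± 0.09). The groups did not overlap, nor in the mouse. Lamb2 had 134, 134 and 82.5 CPM in RPP-A and 8.89, 9.14 and 9.56 CPM in RPP libraries (log2 fold change 3.67 ± 0.21), with RPPM3 the lowest RPP-A library.

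LAMB1, the beta chain of most embryonic laminins, did not pass in H69M although the groups did not overlap. It had 359, 377 and 366 CPM in H69M and 355, 335 and 349 CPM in H69 libraries (log2 fold change 0.09 ± 0.05), and it was called by DESeq2 (0.11), on library totals without TMM (0.13) and at a minimum count of 100 (0.10). It was higher in both sorts and in the mouse. LAMB1 had 882, 863 and 862 CPM in PD-L1 high and 172, 169.8 and 182 CPM in PD-L1 low libraries (log2 fold change 2.32 ± 0.05). LAMB1 had 535 and 543 CPM in HLA high and 141 and 137 CPM in HLA low libraries (log2 fold change 1.95 ± 0.06). Lamb1 had 514, 523 and 460.5 CPM in RPP-A and 28.9, 2.63 and 2.81 CPM in RPP libraries (log2 fold change 5.47 ± 0.92; 7.56 without EHK_RPP4). For LAMB1, PD-L1 low cells lay below H69 (log2 fold change -0.99 ± 0.05), and the unsorted H69M libraries lay between the fractions.

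LAMB4 had at most 1.06 CPM in any human library. It did not pass the test in H69M, at 0.175 ± 0.035 CPM in H69M and 0.328 ± 0.161 CPM in H69 cells (SD, n = 3 each), and was called at a log2 fold change of -1.20 without H69 replicate 3. LAMB4 had 0.538, 0.481 and 1.06 CPM in PD-L1 high and 0.177, 0.233 and 0.362 CPM in PD-L1 low libraries (log2 fold change 1.42 ± 0.44), a call lost without PD-L1 high replicate 3 (edgeR, adjusted p = 0.0542). LAMB4 had 0.36 and 0.547 CPM in HLA high and 0.0988 and 0.0928 CPM in HLA low libraries (log2 fold change 2.17 ± 0.51).

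Of the laminin gamma chains, LAMC1, part of most laminins, was higher in each comparison by 1.29 to 2.67 on the log2 scale. LAMC1 had 637, 693 and 692 CPM in H69M and 244, 227 and 264 CPM in H69 libraries (log2 fold change 1.46 ± 0.06). LAMC1 had 1154, 1147 and 1172 CPM in PD-L1 high and 324, 312 and 342 CPM in PD-L1 low libraries (log2 fold change 1.83 ± 0.06). LAMC1 had 687 and 715 CPM in HLA high and 282 and 290.5 CPM in HLA low libraries (log2 fold change 1.29 ± 0.06). These groups did not overlap. Lamc1 had 556, 550.0 and 346 CPM in RPP-A and 109, 62.3 and 57.1 CPM in RPP libraries (log2 fold change 2.67 ± 0.30), also without overlap.

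LAMC3, a gamma chain of restricted expression, was lower in the MHC class I high fraction of both human sorts, as ITGA2B was. It had 0.685, 0.962 and 0.703 CPM in PD-L1 high libraries, against 4.21, 4.14 and 4.63 CPM in PD-L1 low libraries (log2 fold change -2.44 ± 0.19; edgeR, adjusted p = 3.45e-10). It had 0.421 and 0.339 CPM in HLA high libraries, against 3.6 and 3.71 CPM in HLA low libraries (log2 fold change -3.24 ± 0.23; edgeR, adjusted p = 6.27e-44). Neither sort had overlapping groups. In the unsorted cells LAMC3 was higher, and had 1.57, 1.69 and 1.72 CPM in H69M and 0.443, 0.529 and 0.323 CPM in H69 libraries (log2 fold change 1.86 ± 0.24). PD-L1 low cells lay 3.23 ± 0.21 above H69 on the log2 scale. Lamc3 did not pass the filter, with no count in RPP-A.

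PD-L1 low cells were also set against H69, the line that H69M came from. There 16 members were higher, 8 lower and 7 did not pass, where 75.9% of all genes were called, 39% higher and 36.9% lower. At least 2-fold higher were 10 of them (16.9% of all genes) and at least 2-fold lower 5 (8.52%). Beside ITGA2B and LAMC3, the highest of the called were ITGA5 (log2 fold change 5.43 ± 0.71; 4.51 without PD-L1 low replicate 3) and ITGA1 (log2 fold change 3.60 ± 0.44). Among the lowest were LAMA3 (log2 fold change -2.09 ± 0.06) and ITGA4. ITGA11 had 12 counts in PD-L1 low cells and 3 in H69 cells, a ratio of 4.4 with a 95% exact interval of 1.19 to 24.3. Its call was lost without PD-L1 low replicate 3, H69 replicate 1 or H69 replicate 2. ITGB2 (log2 fold change -1.02 ± 0.45; edgeR, adjusted p = 0.0494) was not called by DESeq2 (-1.05), by limma-voom (-0.94) or without PD-L1 low replicate 1, 2 or 3 (-1.16, -0.82 and -1.09).

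The unsorted H69M libraries overlapped the range spanned by the libraries of both fractions for 28 of the 31 tested members. All 3 of them lay below every library of both fractions for ITGA7, LAMA3 and LAMA5. The mean of PD-L1 low cells was 0.625% of that of PD-L1 high cells for ITGA5, 1.53% for ITGA1 and 17.3% for ITGA10.

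**Figure D4:**
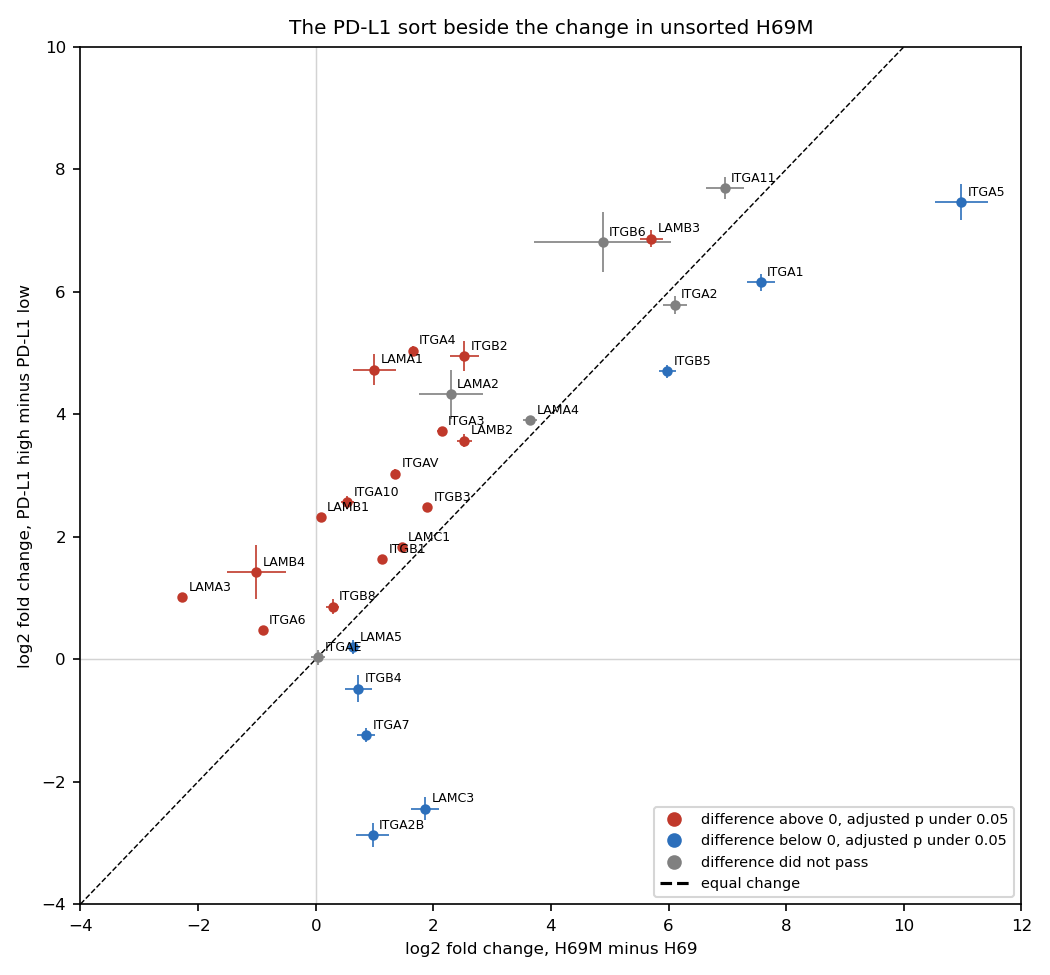
Log2 fold change of tested integrin and laminin genes in the PD-L1 sort of H69M (y) against that of unsorted H69M over H69 (x), with standard errors and a dashed line of equal change. LAMC3, ITGA2B, ITGA7 and ITGB4 lie above 0 on x and below 0 on y, and LAMA3, ITGA6 and LAMB4 the reverse. Of these, ITGB4 did not pass the test on y and LAMB4 did not pass it on x. Red points lie above the line and blue points below it by the test of the difference.

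The change within the PD-L1 sort was compared with the change of H69M from H69. The 4 groups of this contrast share no library, but both fractions were sorted from H69M cells. The difference was above 0 for 17 members, below 0 for 8 and did not pass for 6. Of all genes, 71.4% were called, 35.3% above and 36.1% below 0. The largest positive differences were those of LAMA1 (3.73 ± 0.54), ITGA4 (3.39 ± 0.10) and LAMA3 (3.28 ± 0.09). The largest negative ones were those of LAMC3 (-4.30 ± 0.31), ITGA2B (-3.83 ± 0.35) and ITGA5 (-3.51 ± 0.88; -2.60 without PD-L1 low replicate 3). The LAMA1 difference had to lie above 0. Its PD-L1 low mean lay near that of H69 (0.303 and 0.384 CPM), and its H69M mean lay below that of PD-L1 high (0.693 and 8.03 CPM). For LAMC3, ITGA2B and ITGA7 the sort's change was below 0 and the H69M change above it, both called. For LAMA3 and ITGA6 the signs were the reverse, both called too. The difference was not called for LAMB3 without any 1 of 4 libraries, nor for ITGA1 without H69 replicate 1.

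Genes that work with these subunits were counted from 3 lists put together with earlier results of these data known. Of the integrin adaptors, the proteins that tie the receptor tail to actin, 18 of 32 tested were higher and 7 lower in H69M, where 35.9% of all genes were higher and 36.6% lower. In PD-L1 high cells 26 of 32 were higher and 3 lower (39% and 39.4% of all genes). In HLA high cells 29 of 34 were higher and 3 lower (41.1% and 40.2%), and in RPP-A cells 28 of 35 were higher and 2 lower (37.6% and 40.6%). The CAS scaffold NEDD9 had log2 fold changes of 4.85 ± 0.18 in H69M, 6.38 ± 0.14 in PD-L1 high and 9.69 ± 0.12 in HLA high cells. It averaged 303 CPM in HLA high and 0.358 CPM in HLA low cells. The tensin TNS1 averaged 5.84 CPM in H69M and 0.0663 CPM in H69, 23 CPM in PD-L1 high and 0.0537 CPM in PD-L1 low, and 17.3 CPM in HLA high and 0.0645 CPM in HLA low cells. Tgfb1i1, a paxillin relative, averaged 156 CPM in RPP-A and 2.74 CPM in RPP cells (log2 fold change 5.85 ± 0.28). The kindlin Fermt1, which switches integrins on, averaged 0.0226 CPM in RPP-A, 1 count in all, and 2.81 CPM in RPP cells.

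Of the other basement membrane and hemidesmosome genes, 11 of 17 tested were higher and 5 lower in H69M (35.9% and 36.6% of all genes), and 12 of 17 higher and 3 lower in PD-L1 high cells (39% and 39.4%). In HLA high cells 16 of 16 were higher (41.1%), and in RPP-A cells 11 of 15 were higher and 3 lower (37.6% and 40.6%). COL18A1, the source of endostatin, averaged 129 CPM in H69M and 4.07 CPM in H69 cells (log2 fold change 4.95 ± 0.12). It averaged 559 CPM in PD-L1 high and 24.3 CPM in PD-L1 low cells (log2 fold change 4.55 ± 0.09). It averaged 679.6 CPM in HLA high and 6.37 CPM in HLA low cells (log2 fold change 6.74 ± 0.08). COL18A1 was thus higher in all 3. Hspg2, which encodes perlecan, averaged 743 CPM in RPP-A and 16.7 CPM in RPP cells (log2 fold change 5.49 ± 1.07). Nid1, the laminin-binding nidogen, averaged 2062 CPM in RPP-A and 54.5 CPM in RPP cells (log2 fold change 5.24 ± 0.50). In H69M and in the PD-L1 sort the type IV collagen genes took different courses, while in HLA high cells every gene tested from this list was higher. COL4A1 and COL4A2 had no count in H69 and PD-L1 low cells and had counts in H69M and PD-L1 high cells. COL4A4 fell in H69M, to 0.57 CPM against 33.1 CPM in H69 cells (log2 fold change -5.86 ± 0.14). COL4A6 was lower in PD-L1 high cells, at 16.6 CPM against 58.7 CPM in PD-L1 low cells (log2 fold change -1.82 ± 0.07), and higher in HLA high cells, at 13.3 CPM against 1.61 CPM in HLA low cells (log2 fold change 3.04 ± 0.13).

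Of the genes that encode integrin ligands, 19 of 21 tested were higher and 1 lower in H69M (35.9% and 36.6% of all genes), and 17 of 21 higher and 2 lower in PD-L1 high cells (39% and 39.4%). In HLA high cells 18 of 20 were higher and 2 lower (41.1% and 40.2%), and in RPP-A cells 15 of 19 were higher and 3 lower (37.6% and 40.6%). The list shares COL1A1, COL1A2 and COL3A1 with the fibroblast markers. FN1, fibronectin, the ligand of the pair of ITGA5 and ITGB1, averaged 468 CPM in H69M and 0.536 CPM in H69 cells (log2 fold change 9.76 ± 0.30). It averaged 1971 CPM in PD-L1 high and 15.8 CPM in PD-L1 low cells (log2 fold change 7.05 ± 0.21). It averaged 1115 CPM in HLA high and 0.0761 CPM in HLA low cells (log2 fold change 13.81 ± 0.14). FN1 was thus higher wherever ITGA5 was in the human comparisons. CTGF, a matricellular ligand, averaged 594 CPM in PD-L1 high and 2.63 CPM in PD-L1 low cells (log2 fold change 8.09 ± 0.26). Postn, periostin, averaged 4632 CPM in RPP-A and 8.2 CPM in RPP cells (log2 fold change 9.16 ± 0.88). CDH1, E-cadherin and the ligand of the pair of ITGAE and ITGB7, was lower in PD-L1 high, HLA high and RPP-A cells and higher in H69M. Its log2 fold change was -2.47 ± 0.08 in PD-L1 high, -1.03 ± 0.09 in HLA high, -7.62 ± 0.33 in RPP-A and 0.86 ± 0.07 in H69M cells.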

How the data were processed

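The authors deposited whole-number read counts per gene in 3 tables (H69 with H69M and its fractions, H69EZ, mouse). Per the labels' protocols, libraries were made from 250 ng of RNA with an exome capture kit, so levels also depend on capture. STAR 2.6.1, hg19 and mm10 are named per the submitters' processing notes; no counter, annotation or strand setting is given in the sources used here, which leaves overlapping and antisense genes uncertain. All 22 libraries were used. Mouse columns carry no replicate numbers and were assigned by group, RPPM as RPP-A.

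Each table was fitted by itself in edgeR 4.0.16 (R 4.3.3) with filterByExpr (minimum count 10), TMM scaling, 1 coefficient per group and quasi-likelihood F tests, adjusted by Benjamini-Hochberg over all genes tested, at 0.05. CPM is the count over the TMM-scaled library size, times 1000000. SE is the log2 fold change over the root of F. The 95% intervals of log2 differences use this SE and the normal quantile, and may be too narrow for so few libraries. Groups with 0 counts were set at a floor of 3 counts over the group, and groups of 1 to 3 counts got an exact 95% binomial interval, for counting error only. The steps were tested on simulated data. Alternatives were limma 3.58.1, DESeq2 1.42.0, other scalings and filters, left-out libraries and a replicate block.

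Named were members called with groups apart and at least 2-fold, those tested and not called, the 3 largest differences each way, and beta and laminin chains by role; other genes came from lists, up to 4 per list and comparison. Some genes are not reported here; counts over the members include them, and summed marker levels do not. Members and lists were chosen with earlier results of these data known. The pair RPPM1 and RPPM2 was most alike (chi-square over its degrees of freedom 1.33; 2.22 to 37.2 in the other pairs), still above sampling noise, and was counted as 2 libraries.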

Additional observations from a re-analysis of the deposited data

Results flagged for a closer look

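The change within the PD-L1 sort of H69M differed from the change of H69M over H69 by the test of the difference itself for 25 of the 31 members tested (edgeR, adjusted p under 0.05; the value is the first log2 fold change minus the second). Among integrin alpha chains the difference was 3.39 for ITGA4, 2.02 for ITGA10, 1.68 for ITGAV, 1.58 for ITGA3 and 1.37 for ITGA6. It was -1.41 for ITGA1, -2.10 for ITGA7, -3.51 for ITGA5 and -3.83 for ITGA2B. Among the beta chains it was 2.42 for ITGB2, 0.59 for ITGB3, 0.56 for ITGB8 and 0.52 for ITGB1, and -1.19 for ITGB4 and -1.28 for ITGB5. Among the laminin chains it was 3.73 for LAMA1, 3.28 for LAMA3, 2.43 for LAMB4, 2.23 for LAMB1, 1.16 for LAMB3, 1.04 for LAMB2 and 0.37 for LAMC1, and -0.44 for LAMA5 and -4.30 for LAMC3. Of all genes tested, 71.4% differed by the same test. Both fractions were sorted from H69M cells. Where PD-L1 low lay near H69 and H69M below PD-L1 high, a difference above 0 had to follow. Such were ITGA3 (means of 66.9 CPM in PD-L1 low and 60.9 CPM in H69), ITGAV (45.3 and 49.4 CPM), LAMA1 (0.303 and 0.384 CPM) and LAMB4 (0.257 and 0.328 CPM). The differences of ITGA5 and ITGA1 rest on 16 and 12 counts in H69. The LAMB3 call was lost on library totals (edgeR, adjusted p = 0.0675) and with no filter on low counts (edgeR, adjusted p = 0.0553). It was also lost without H69 replicate 1 or 3, PD-L1 low replicate 1 or PD-L1 high replicate 1, at values from 0.79 to 1.24. The ITGA1 call was lost without H69 replicate 1, at -1.28 (edgeR, adjusted p = 0.0789). Groups of 2 or 3 libraries were not tested for a library far from its group.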

How the results depend on the processing

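Counts of calls held within 1.5 times of those reported except under the settings named here. Asking for at least 2-fold left 3669, 5144, 3933, 5144, 5082 and 7016 genes in H69M minus H69, the PD-L1 sort, PD-L1 low minus H69, the difference of the sort and H69M changes, the HLA sort and RPP-A minus RPP, 1 lower member in H69M, 10 higher and 5 lower in PD-L1 low minus H69 and 2 lower in the HLA sort. With no filter on low counts 5 members were lower in the PD-L1 sort, and with a minimum count of 100, 4 were lower in RPP-A. Without PD-L1 low replicate 1, 5 members were lower in PD-L1 low minus H69, against 8 with all libraries.

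Leaving out each library in turn gave, in the order above, 10692 to 11255, 11760 to 11946, 11262 to 11744, 10778 to 11283, 10644 to 12468 and 10368 to 11501 genes called. Members higher were 23 to 26, 24 to 26, 14 to 17, 15 to 18, 27 to 28 and 18 to 21, and members lower 2 to 3, 3 to 4, 5 to 7, 7 to 8, 4 to 5 and 8 to 9.

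Signs that turned were those of members that had not passed the test. For ITGAE in H69M the range over left-out libraries was -0.02 to 0.13. In the PD-L1 sort ITGAE was -0.11 on library totals, -0.01 with no filter and -0.02 at a minimum count of 100, and -0.12 to 0.14 over left-out libraries. ITGAE was -0.06 to 0.15 over left-out libraries in PD-L1 low minus H69. In the HLA sort it was -0.07 on library totals and -0.02 to 0.17 over left-out libraries. In the difference it was 0.01 with DESeq2's size factors, 0.02 with its test, and -0.18 to 0.10 over left-out libraries. Over left-out libraries, LAMA1 was -0.45 to 0.01 and LAMA2 -0.19 to 0.63 in PD-L1 low minus H69, and ITGA2 -0.64 to 0.10 in the difference. ITGB7 was -0.10 in the HLA sort on library totals and -0.12 to 0.25 over left-out libraries. Itga9 was 0.08 without RPPM3 and 0.09 without EHK_RPP4 and RPPM3. The cause of these changes was not tested.

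Replicate numbers are not said to pair the samples. Deviations of same-numbered libraries correlated between -0.164 and 0.0946, which with so few libraries per group cannot exclude a pairing. With a replicate block, 10915, 11923, 11486, 10791 and 12031 genes were called in the human comparisons in the order above, and members lower in PD-L1 low minus H69 were 7, not 8 (ITGB2). No paired analysis was possible for the mouse because its columns carry no replicate numbers.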
